A study of Oryza sativa with 16 samples.

Results

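A set of 197 rice genes was lower in the leaves of 3 histone over-expressors than in WT leaves. They were chosen by their measured values from 29768 annotated genes. The lower of the 2 WT leaf values had to reach 3 FPKM, a fragment count corrected for transcript length and library size, and to be at least 2 times the highest value over the 6 over-expressor libraries. The WT minimum was met by 8563 genes, of which the 197 were 2.30%. The difference between over-expressor and WT leaves chose these genes, so it is described here without a test.

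Histone H4 is a core histone, part of the protein spool around which DNA is wound in a nucleosome. Its N-terminal tail carries modifications that go with open or closed chromatin, and a variant histone can replace the canonical protein in part of the nucleosomes. H4.V is an H4 variant of rice whose sequence differs from canonical H4 mostly in that tail, and salt in the medium is a stress to which rice seedlings respond by changing the expression of many genes.

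Poly(A) RNA of indica rice, cultivar Pusa Basmati 1 (PB1), was sequenced in 16 libraries, 2 per group, which the labels call biological duplicates. Mature leaves came from greenhouse plants of OE-H4.V, of OE-H4, of OE-H4.Vs and of WT. Each over-expressor carries its coding sequence driven by the maize Ubiquitin promoter after transformation of calli. OE-H4 carries canonical H4, OE-H4.V the variant, and OE-H4.Vs (OE_CHMR in the labels) joins the N-terminal part of H4.V to the C-terminal part of H4. The seedlings were h4.v KO, a Cas9 knockout of H4.V, and WT, each raised on medium with 120 mM NaCl or without NaCl. Their age was 20 d by the labels, while the study's methods give another age. No over-expressor seedlings and no h4.v KO leaves were analysed here. None of the 197 identifiers was paired with a name or a product in the sources used here. The genes are therefore given by identifier and by position on IRGSP1.0, no function is stated for them, and the tissue labels were not checked against marker genes. A lower value in such bulk samples can mean fewer cells of a type or less RNA per cell, which cannot be told apart.

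The labels of the over-expressors were checked first at Os05g0462900, which was matched to H4.V by position alone. The gene spans chr5:22743760-22744188 and had 3369 and 3162 FPKM in OE-H4.V leaves and was listed at 0 in all 14 other libraries. No transcript overlapped it in OE-H4.Vs leaves either, so this locus checks the label of OE-H4.V and says nothing on OE-H4.Vs or OE-H4, nor on h4.v KO seedlings, since WT seedlings were listed at 0 too.

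The WT leaf libraries stood apart from the rest of the series, WT seedlings included. A total of 42 genes had at least 3 FPKM in both WT leaf libraries and were listed at 0 in the other 14 libraries. Such genes meet the rule by definition, so all 42 were among the 197. For 35 of the 42, no transcript in those 14 libraries overlapped the gene at all. In the opposite direction, 85 genes were listed at 0 in both WT leaf libraries and had at least 1 FPKM in each of the other 14. The same counts for the 7 other groups ran from 0 to 10 and from 0 to 14, and WT seedlings had the highest of both. These counts were chosen after the values had been seen. WT leaves were the only control of the over-expressors, so that an effect of the transgenes and whatever set these WT leaf libraries apart cannot be told apart. Without the 42 genes, 155 remained.

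**Figure D1:**
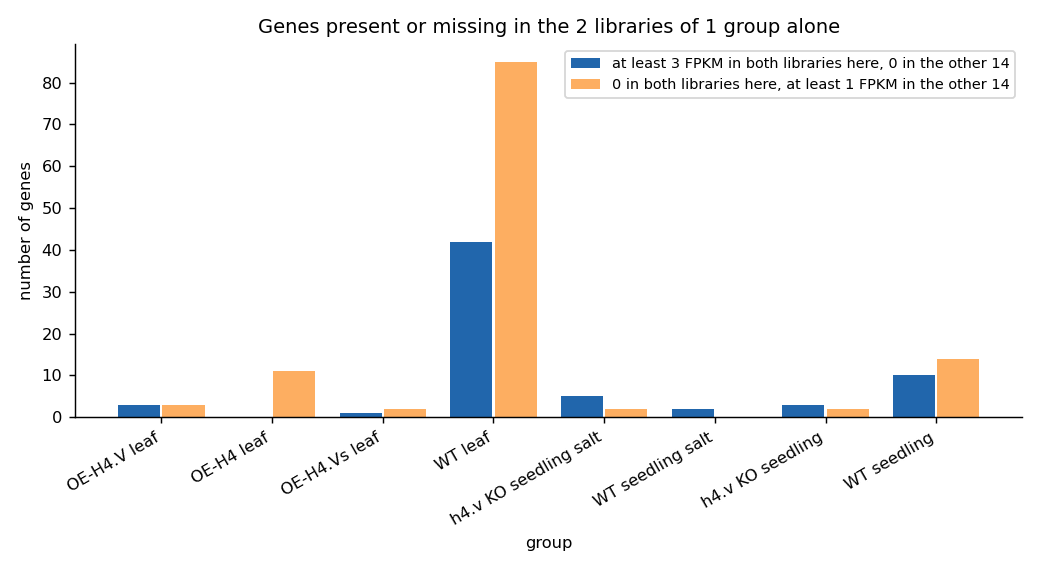
Number of genes found in both libraries of 1 group alone (blue: at least 3 FPKM there and 0 in the other 14) or missing from them alone (orange: 0 there and at least 1 FPKM in each of the other 14), for each of the 8 groups. WT leaves had 42 and 85 such genes, and no other group had more than 10 and 14.

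In leaves, the 197 genes had a mean of 3.35 to 255 FPKM in WT, with a median of 9.08 FPKM, against a median of 12.8 FPKM in the 8366 other genes that met the WT minimum. The 2 WT libraries differed by a median of 0.19 on the log2(FPKM + 1) scale in the 197 genes and by 0.16 in the 8366 others. Summed over the 197 genes, the values were 425 and 527 FPKM in OE-H4.V leaves, 345 and 357 FPKM in OE-H4 leaves, 440 and 549 FPKM in OE-H4.Vs leaves, and 3976 and 3769 FPKM in WT. On the log2(FPKM + 1) scale, the median difference from WT was -2.49 in OE-H4.V, -2.66 in OE-H4 and also -2.49 in OE-H4.Vs. The sums and the medians of all 3 lines lay close together, far below WT, as the choice of genes required.

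Some of the genes were listed at 0 in the over-expressors and others were reduced. In 72 genes, all 6 over-expressor libraries were listed at 0, at WT means from 3.58 to 180 FPKM. Another 60 genes were listed at 0 in 1 to 5 of the 6 libraries, and 65 had a value above 0 in all 6. Among those 65, the lower WT value was a median of 2.52 times the highest over-expressor value, with a range from 2.01 to 293 times. A ratio of at least 10, or 0 in every over-expressor, was reached by 98 of the 197 genes.

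A value of 0 in these tables can also arise where Cufflinks joined a gene into a longer transcript. Of the 72 genes, 50 had no overlapping transcript of any kind in the over-expressors, whereas 22 had one that lay mostly outside the gene. When every overlapping transcript was counted, 164 of the 197 genes still met the rule and 33 did not, and 19 of these 33 were among the 72. A 0 in the heat map therefore cannot be read as silence in every gene. Without the 42 genes found in WT leaves alone, 30 of the 72 remained.

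**Figure D2:**
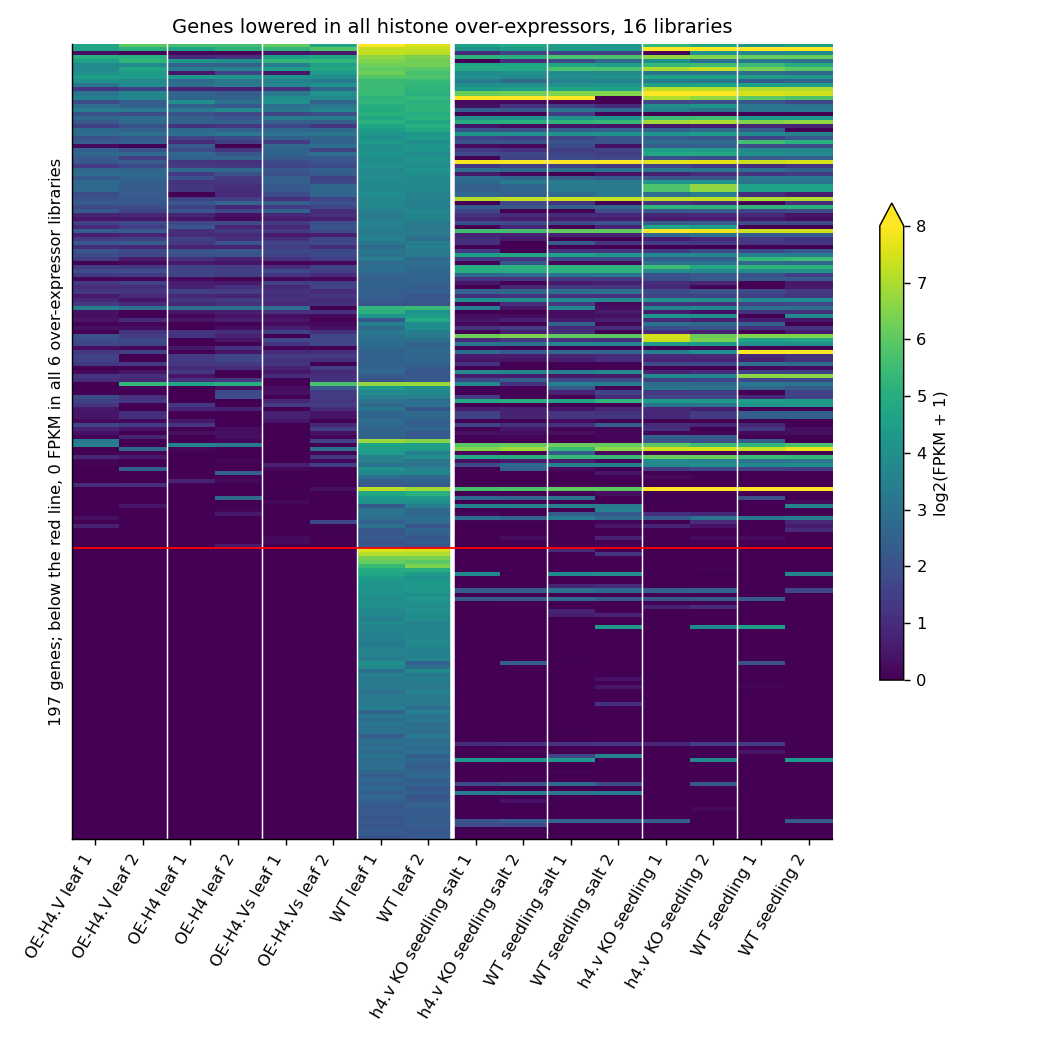
Heat map of log2(FPKM + 1) for the 197 genes (1 line each, sorted by the number of over-expressor libraries at 0 and then by WT leaf mean) in the 16 libraries, leaves left and seedlings right of the thick white line. The 72 genes below the red line were at 0 in all 6 over-expressor libraries, and 42 of them were at 0 in all 8 seedling libraries as well.

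The gene highest in WT leaves was Os02g0129800 (chr2:1558563-1559143). It had 25.6 and 62.6 FPKM in OE-H4.V leaves, 49.7 and 45.4 in OE-H4 leaves, 64.8 and 25.6 in OE-H4.Vs leaves, and 318 and 191 FPKM in WT leaves. Its WT replicates differed by more than those of most of the genes. The lower one was 2.95 times the highest over-expressor value, where the rule required at least 2 times. Os06g0347100 (chr6:13947426-13951272) was listed at 0 in all 6 over-expressor libraries, against 185 and 176 FPKM in WT leaves. Os02g0310200 (chr2:12185506-12187024) was likewise at 0 in all 6, against 138 and 132 FPKM in WT leaves. No transcript in the over-expressors overlapped either gene.

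Os03g0385400 (chr3:15307624-15309776) had 0.25 and 0.08 FPKM in OE-H4.V leaves, 0.08 and 0.06 in OE-H4 leaves, 0.36 and 0.49 in OE-H4.Vs leaves, and 153 and 144 FPKM in WT leaves. Os01g0720500 (chr1:30030998-30032054) was listed at 0 in 5 over-expressor libraries and had 0.29 FPKM in OE-H4.Vs replicate 2, against 151 and 115 FPKM in WT leaves. The lower WT value was 293 times the highest over-expressor value in Os03g0385400 and 401 times in Os01g0720500. Os01g0720500 was not low in seedlings, where it had 347 and 332 FPKM in h4.v KO and 272 and 262 FPKM in WT without salt.

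Os03g0592500 (chr3:22000043-22001240) was reduced and not at 0. It had 23.3 and 33.0 FPKM in OE-H4.V leaves, 23.9 and 35.8 in OE-H4 leaves, 37.5 and 56.5 in OE-H4.Vs leaves, and 154 and 157 FPKM in WT leaves. Cufflinks' interval for its main transcript ran from 52.7 to 61.8 FPKM in the highest over-expressor library and from 147.8 to 165.2 FPKM in WT leaf replicate 1. The groups did not overlap, as the rule required. These intervals cover the error within single libraries and not the spread between plants, so they are no test of the difference. Os08g0126700 (chr8:1536864-1540377), with 14.8 to 37.6 FPKM in the over-expressors and 86.4 and 76.1 FPKM in WT leaves, was similar in shape.

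Os07g0569600 (chr7:22925654-22926972) and Os04g0168300 (chr4:4689042-4689554) had listed values that differed between replicates of the over-expressors. Os07g0569600 had 0 and 39.3 FPKM in OE-H4.V leaves, 25.6 and 31.7 in OE-H4 leaves, 0 and 50.7 in OE-H4.Vs leaves, and 103 and 111 FPKM in WT leaves. Os04g0168300 had 8.48 and 0 FPKM in OE-H4.V leaves, 0 and 0.10 in OE-H4 leaves, 0 and 1.90 in OE-H4.Vs leaves, and 111 and 92.1 FPKM in WT leaves. In both genes, 3 leaf libraries had a transcript that overran the gene or was shared with another. Over every overlapping transcript, Os07g0569600 had 26.6 and 39.3 FPKM in OE-H4.V leaves, 27.1 and 31.7 in OE-H4 leaves, and 21.0 and 50.7 in OE-H4.Vs leaves. Counted so, Os04g0168300 had 8.48 and 16.9 FPKM in OE-H4.V leaves, 7.14 and 0.10 in OE-H4 leaves, and 8.12 and 1.90 in OE-H4.Vs leaves. The 0s of both genes thus rested on which transcripts were counted.

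**Figure D3:**
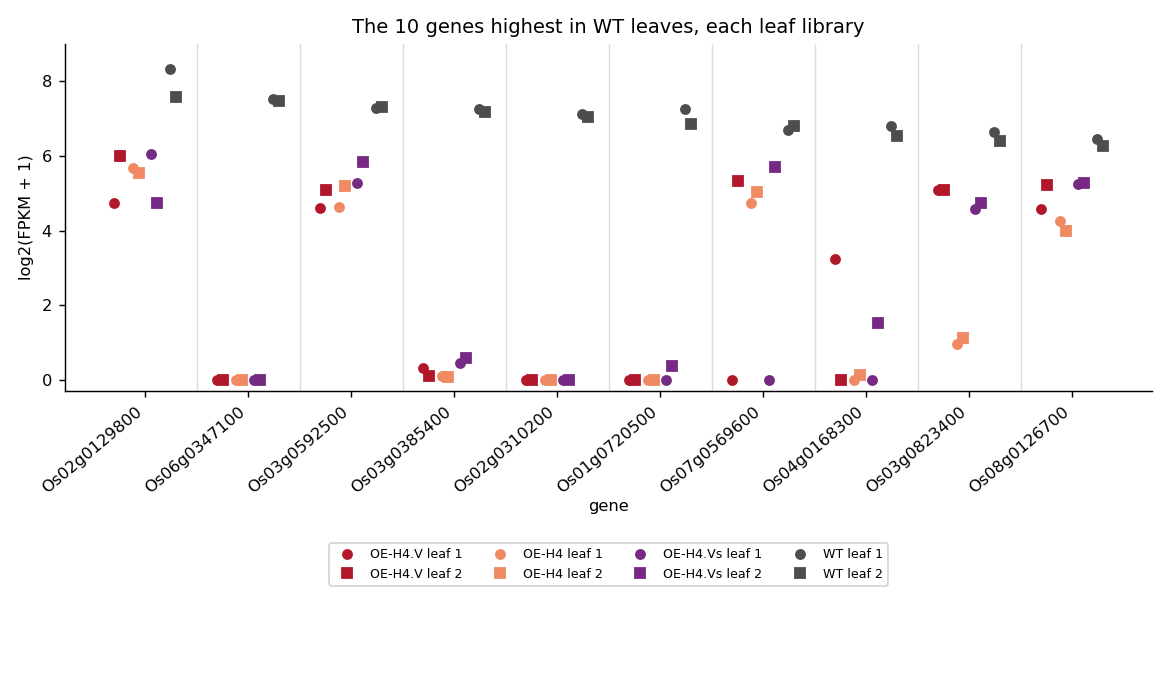
Values of the 10 genes with the highest WT leaf mean, as log2(FPKM + 1), with circles for replicate 1 and squares for replicate 2 of OE-H4.V, OE-H4, OE-H4.Vs and WT leaves. All over-expressor points lie below the WT points, and Os06g0347100 and Os02g0310200 are at 0 in every over-expressor library.

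At the edge of the rule, 3 genes lay just inside. Os12g0548300 (highest over-expressor 11.0 FPKM, lower WT library 22.1 FPKM), Os07g0175300 (5.12 FPKM, against 10.3 in WT) and Os07g0106000 (2.16 FPKM, against 4.36 in WT) had ratios of 2.00 to 2.02. Just outside it, Os05g0408900 (11.0 FPKM, against 21.9 in WT), Os07g0484800 (1.63 FPKM, against 3.23 in WT) and Os01g0974701 (2.99 FPKM, against 5.93 in WT) had ratios of 1.98 or 1.99. The boundary thus separates genes with nearly equal values. With every overlapping transcript, none of the 3 inside met the rule, since Os07g0175300 then had 6.78 FPKM and Os07g0106000 17.4 FPKM in OE-H4 replicate 2, and Os12g0548300 is described below.

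The 3 over-expressors were compared with each other, which the rule had used only through their highest value. Of the 197 genes, 185 averaged 1 FPKM or more in the 8 leaf libraries, and 12159 genes in all were tested by limma on the log2(FPKM + 1) scale. A gene was called at an unadjusted p under 0.05 with an absolute log2 fold change over 1.5, and adjusted p-values are limma's, corrected over all genes in the test by the Benjamini-Hochberg method. In OE-H4.V against OE-H4, 5 of the 185 were higher and 0 lower (of all genes tested, 1.52% were higher and 1.32% lower, 2.84% in either direction). At the unadjusted p alone, 26 were higher and 2 lower, against 6.71% and 12.3% of all genes tested. In OE-H4.Vs against OE-H4, 3 were higher and 1 lower (1.54% and 1.04% of all genes, 2.57% in either direction), and 23 were higher and 3 lower at the unadjusted p alone, against 7.85% and 9.45% of all genes. In OE-H4.V against OE-H4.Vs, 0 were higher and 1 lower (0.461% and 0.650% of all genes, 1.11% in either direction), with 7 higher and 5 lower at the unadjusted p alone, against 2.27% and 3.96% of all genes. Of the 185, 64 were at 0 in all 6 over-expressor libraries and could not be called, so the 185 are no fair base for a share. In a filter chosen after seeing the data, 73 of the 197 genes averaged 1 FPKM or more over the 6 over-expressor libraries, as did 11909 of the 12159 genes, and the same calls fell in these 73 genes. The shares of those 11909 called higher and lower were 1.53% and 1.34% for OE-H4.V against OE-H4, 1.56% and 1.06% for OE-H4.Vs against OE-H4, and 0.462% and 0.655% for OE-H4.V against OE-H4.Vs.

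The call that stood out was Os03g0823400 (chr3:34567109-34568087). It had 33.1 and 33.1 FPKM in OE-H4.V leaves, 0.95 and 1.19 in OE-H4 leaves, 22.8 and 25.7 in OE-H4.Vs leaves, and 99.7 and 83.9 FPKM in WT leaves. No library of OE-H4 came near those of the other lines. Its log2 fold change was 4.05 ± 0.14 (SE) in OE-H4.V against OE-H4 (limma adjusted p = 0.000533) and 3.61 ± 0.14 in OE-H4.Vs against OE-H4 (limma adjusted p = 0.00038).

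Os12g0428000 (chr12:13657101-13658736) had 2.68 and 2.46 FPKM in OE-H4.V leaves, 2.44 and 2.24 in OE-H4.Vs leaves, and 0 and 0.37 in OE-H4 leaves. Its log2 fold change was 1.51 ± 0.21 (SE) in OE-H4.Vs against OE-H4 (limma adjusted p = 0.0491) and 1.61 ± 0.21 in OE-H4.V against OE-H4 (limma adjusted p = 0.0509). Os12g0438600 (chr12:14487420-14491026) had 2.19 and 2.09 FPKM in OE-H4.V against 0 and 0.02 FPKM in OE-H4, but did not pass after adjustment (limma adjusted p = 0.0738). Both genes were lowest in OE-H4 leaves. Os10g0508700 (chr10:19530118-19532281), at 16.1 and 20.1 FPKM in OE-H4.V leaves and 0.40 and 2.201 in OE-H4 leaves, had a limma adjusted p of 0.247. By limma it lost its call at a pseudocount of 0.1 (unadjusted p of 0.0608), without any 1 library of WT, OE-H4.V or OE-H4 leaves, and with both WT leaf libraries left out (unadjusted p of 0.0619). Os02g0273800 (chr2:9981587-9985906), at 0.18 and 0.03 FPKM in OE-H4.V leaves and 5.46 and 6.42 in OE-H4.Vs leaves, was the gene called lower in OE-H4.V than in OE-H4.Vs (limma adjusted p = 0.648).

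Os07g0175300 (chr7:3957966-3960638) and Os12g0548300 (chr12:22182885-22189908) were also called between lines. The calls rested on which transcripts were counted. Os07g0175300 had 2.56 and 5.12 FPKM in OE-H4.Vs and 0.03 and 0.92 FPKM in OE-H4, and its log2 fold change of 1.73 became 0.73 with every overlapping transcript. Os12g0548300 was listed at 0 in OE-H4.Vs and had 11.0 and 8.20 FPKM in OE-H4, and its log2 fold change of -3.39 turned to 0.79 in the same way. Counted so, Os12g0548300 reached 25.4 FPKM in OE-H4.V replicate 2, above both WT leaf libraries, and no longer met the rule.

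Counted by libraries that do not overlap, both OE-H4 libraries lay below all 4 libraries of the other 2 lines in 31 of the 185 genes (16.8%, against 11.6% of all genes tested). Both OE-H4 libraries lay above them in 11 of the 185 (5.95%, against 22.2% of all genes tested). OE-H4.V libraries lay below the others in 4 genes (2.16%, against 11.0%) and above them in 17 (9.19%, against 4.49%). OE-H4.Vs libraries lay below in 9 (4.86%, against 6.55%) and above in 15 (8.11%, against 8.19%). Genes at 0 in all lines can take neither position. Among the 73 genes that averaged 1 FPKM or more over the over-expressors, OE-H4 lay below in 23 (31.5%, against 11.7% of the 11909) and above in 6 (8.22%, against 22.6%). OE-H4.V lay below in 2 (2.74%, against 11.2%) and above in 13 (17.8%, against 4.48%), and OE-H4.Vs below in 7 (9.59%, against 6.67%) and above in 8 (11.0%, against 8.23%).

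WT seedlings, which the rule did not use, were mostly below WT leaves in the 197 genes. Both WT seedling libraries lay below both WT leaf libraries in 159 genes (80.7%, against 39.0% of the 8366 other genes with the same WT leaf minimum) and above them in 31 (15.7%, against 42.3%), and the libraries overlapped in 7. Choosing genes for high WT leaf values can itself favour the first position. In 77 of the 197 genes (39.1%), both WT seedling libraries were listed at 0, against 66 of the 8366 others (0.789%). In 46 genes (23.4%), all 8 seedling libraries were at 0, against 3 of the 8366 others (0.0359%). The genes found in WT leaves alone were 42 of these 46, and without them 4 of 155 (2.58%) were at 0 in all seedlings, 35 of 155 (22.6%) were at 0 in both WT seedling libraries, and 117 of 155 (75.5%) were lower there than in WT leaves. When every overlapping transcript was counted, 63 of the 197 were at 0 in both WT seedling libraries and 39 in all 8, against 24 and 2 of the 8366 others. In 130 genes, the range of the WT seedlings overlapped that of the over-expressor leaves. No such share was taken for the 8366 others. Moreover, 42 of the 197 were at 0 in all over-expressor and all seedling libraries, so no likeness is read from this count.

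The 31 genes that were higher in WT seedlings than in WT leaves included some of the highest values of the set. Os02g0661100 (chr2:26767607-26771623) had 307 and 361 FPKM in WT seedlings, against 4.58 and 5.85 FPKM in WT leaves. Os01g0805900 (chr1:34167936-34171573) had 127 and 129 FPKM in WT seedlings, against 12.0 and 10.8 FPKM in WT leaves. Os05g0247100 had 165 and 182 FPKM in WT seedlings, against 14.4 and 16.2 FPKM in WT leaves. The 31 genes were defined by higher values in seedlings than in leaves, so their seedling values say nothing on the rest of the set. Os05g0247100 was chosen after its values were seen.

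The 197 genes lay on all 12 chromosomes and formed 190 separate loci, since 7 overlapped the gene before them. As a share of the genes that met the WT leaf minimum, they ran from 0.974% on chromosome 5 to 4.95% on chromosome 12. With gaps of at most 100 kb, 68 genes formed 30 runs of 2 or 3 genes. These runs hold the 7 overlapping genes too, and no run count was taken over other genes that met the WT minimum. The densest 10 Mb for genes at 0 in all over-expressors lay on chromosome 3, from a first start at 14683357 to a last start at 23048126. It held 12 of the 72 genes among 161 that met the WT minimum (7.45%, against 0.841% over the genome), and 11 of the 42 genes found in WT leaves alone. Of the 85 genes missing from WT leaves alone, 3 lay there. The stretch was chosen for its density, and no share over all genes was taken for the 85. Their count is therefore not compared with that of the 42.

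Os03g0575500 (chr3:21030442-21031298) was the highest of the genes in that stretch that were found in WT leaves alone, with 79.8 and 81.1 FPKM there. Its neighbour Os03g0575700 (chr3:21037379-21038297) had 7.56 and 6.46 FPKM in WT leaves, and both were listed at 0 in the 14 other libraries. On chromosome 6, a run of Os06g0346100, Os06g0346600 and Os06g0347100 between 13886690 and 13951272 was at 0 in all 6 over-expressor libraries, against 11.6 and 15.6 FPKM, 4.29 and 5.78 FPKM, and 185 and 176 FPKM in WT leaves. In seedlings, 2 of these genes had less than 1 FPKM in 1 WT salt library and 0 elsewhere, and Os06g0346600 was at 0 in all 8. With every overlapping transcript, Os06g0347100 had 0.894 and 1.725 FPKM in h4.v KO with salt and 0.97 and 1.24 FPKM in WT with salt. Neighbouring genes were thus listed at 0 together, and both runs were picked after their values were seen.

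The first run by position joined unlike genes. Os01g0805900 had 3.25 and 3.59 FPKM in OE-H4.V leaves, 1.98 and 1.78 in OE-H4 leaves, 1.12 and 2.15 in OE-H4.Vs leaves, and 12.0 and 10.8 FPKM in WT leaves. Os01g0807266 (chr1:34259141-34259790) had 0 to 0.40 FPKM in the over-expressors and 6.44 and 4.24 FPKM in WT leaves. Os01g0807532 (chr1:34260691-34261452) was at 0 in the over-expressors, against 9.35 and 8.09 FPKM in WT leaves. The first was high in all seedlings (127 to 167 FPKM), and the other 2 stayed under 0.4 FPKM in them. With every overlapping transcript, Os01g0807532 had 1.57 to 2.67 FPKM in the over-expressors and up to 5.36 FPKM in seedlings.

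The seedling comparisons used no library that chose the genes. Of the 197 genes, 100 averaged 1 FPKM or more in the 8 seedling libraries and were tested among 15450 genes. The remaining 97 did not pass that minimum, so the counts below say nothing on them.

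Of the genes that passed the minimum, a larger share than of all genes was lower with salt. In h4.v KO with salt against h4.v KO without, 30 of the 100 were lower and 3 higher (6.16% and 3.11% of all genes, 9.27% in either direction). In WT with salt against WT without, 19 were lower and 7 higher (8.25% and 4.12% of all genes, 12.4% in either direction). In h4.v KO with salt against WT without, which shares libraries with both, 27 were lower and 4 higher (8.83% and 4.25% of all genes, 13.1% in either direction). The median log2 fold changes in these 3 comparisons were -0.77, -0.26 and -0.53 in the 100 genes and -0.10, 0.09 and 0.03 over all genes tested. Where genes with an overrunning or shared transcript in any seedling library were left out, 24, 19 and 25 of 68 were lower and 0, 1 and 0 higher. Of the 11802 genes tested in that way, 6.17%, 8.23% and 8.85% were lower and 2.58%, 3.42% and 3.56% higher. The calls of a rise with salt were thus, but for 1 in WT, in genes with such transcripts. The salt comparisons of the 2 genotypes share no library, and 14 genes were lower in both (46.7% of the 30 in h4.v KO and 73.7% of the 19 in WT). Over all genes tested, 451 were lower in both (47.4% of the 952 in h4.v KO and 35.4% of the 1274 in WT).

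Os03g0592500 fell to 16.0 and 19.6 FPKM in h4.v KO with salt, against 802 and 747 FPKM in h4.v KO without. In WT it had 19.4 and 19.3 FPKM with salt, against 551 and 576 FPKM without. All 4 salt libraries lay far below all 4 others. Its log2 fold change was -5.37 ± 0.10 (SE) in h4.v KO (limma adjusted p = 1.7e-05) and -4.80 ± 0.10 in WT (limma adjusted p = 8.5e-06).

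Os12g0428000 fell to 0.92 and 1.49 FPKM in h4.v KO with salt, against 162 and 81.4 FPKM in h4.v KO without. In WT it had 1.15 and 1.04 FPKM with salt, against 24.0 and 25.9 FPKM without. Its replicates in h4.v KO without salt differed widely, and both lay above every other library. Os04g0640900 (chr4:32606375-32608648) had 0.56 and 0.51 FPKM in h4.v KO with salt and 0.47 and 0.50 FPKM in WT with salt, against 13.1 and 12.2 FPKM in h4.v KO and 98.7 and 97.1 FPKM in WT without. The libraries with salt lay close together in both genotypes, and those without salt did not overlap between genotypes.

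Further genes were called lower with salt, in h4.v KO alone or in both genotypes. Os02g0716500 had 73.4 and 77.1 FPKM in h4.v KO with salt, against 374 and 381 FPKM in h4.v KO without. Os04g0678700 had 19.5 and 21.5 FPKM in h4.v KO with salt, against 143 and 139 FPKM in h4.v KO without, and 25.2 and 22.6 FPKM in WT with salt, against 131 and 130 FPKM in WT without. Both had replicates close together in each group. Os02g0716500 was called in h4.v KO with a log2 fold change of -2.31 ± 0.06 (SE, limma adjusted p = 2.1e-05), and its WT values were 89.0 and 89.2 FPKM with salt, against 183 and 172 FPKM without, which is under the fold cut-off. These 2 genes were chosen after their values were seen.

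A rise with salt was called in few of the genes. Os01g0743600 (chr1:31078718-31087974) had 12.5 and 11.3 FPKM in h4.v KO with salt, against 0.75 and 0.96 FPKM in h4.v KO without, and 10.1 and 13.3 FPKM in WT with salt, against 1.92 and 1.91 FPKM in WT without. Its log2 fold change was 2.79 ± 0.15 (SE) in h4.v KO (limma adjusted p = 0.00016) and 2.12 ± 0.15 in WT (limma adjusted p = 0.00027). In 6 of the 8 seedling libraries, a transcript overran the gene or was shared with another gene. Its values did not move when every overlapping transcript was counted. That count cannot separate a shared transcript from its other gene, so the rise may not belong to Os01g0743600 alone.

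Os03g0101500 (chr3:120881-122838) had the largest listed rise with salt in WT, and its direction turned with the transcripts counted. It was listed at 9.24 and 10.1 FPKM in h4.v KO with salt and 8.02 and 8.56 FPKM in WT with salt, against 0 in all 4 libraries without. With every overlapping transcript, it had 9.24 and 10.1 FPKM in h4.v KO with salt, against 23.9 and 17.5 FPKM in h4.v KO without. Os12g0547600 (chr12:22133336-22136891) and Os07g0190800 (chr7:4880571-4882104) turned in the same way, and Os01g0855900 (chr1:36951126-36951761) lost its call. In leaves, counted so, Os03g0101500 had 10.7 to 16.9 FPKM in the over-expressors, against 4.36 and 4.59 FPKM in WT. Os12g0547600 had 4.21 to 32.6 FPKM in the over-expressors, against 7.68 and 4.32 FPKM in WT, and Os07g0190800 had 10.1 to 17.8 FPKM, against 3.68 and 9.71 FPKM in WT. Os01g0855900 had 2.59 to 4.72 FPKM in the over-expressors, against 4.53 and 4.78 FPKM in WT, so that none of the 4 met the rule when every overlapping transcript was counted. These 4 genes had a transcript that overran the gene or was shared with another in 3 to 7 of the 8 seedling libraries.

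**Figure D4:**
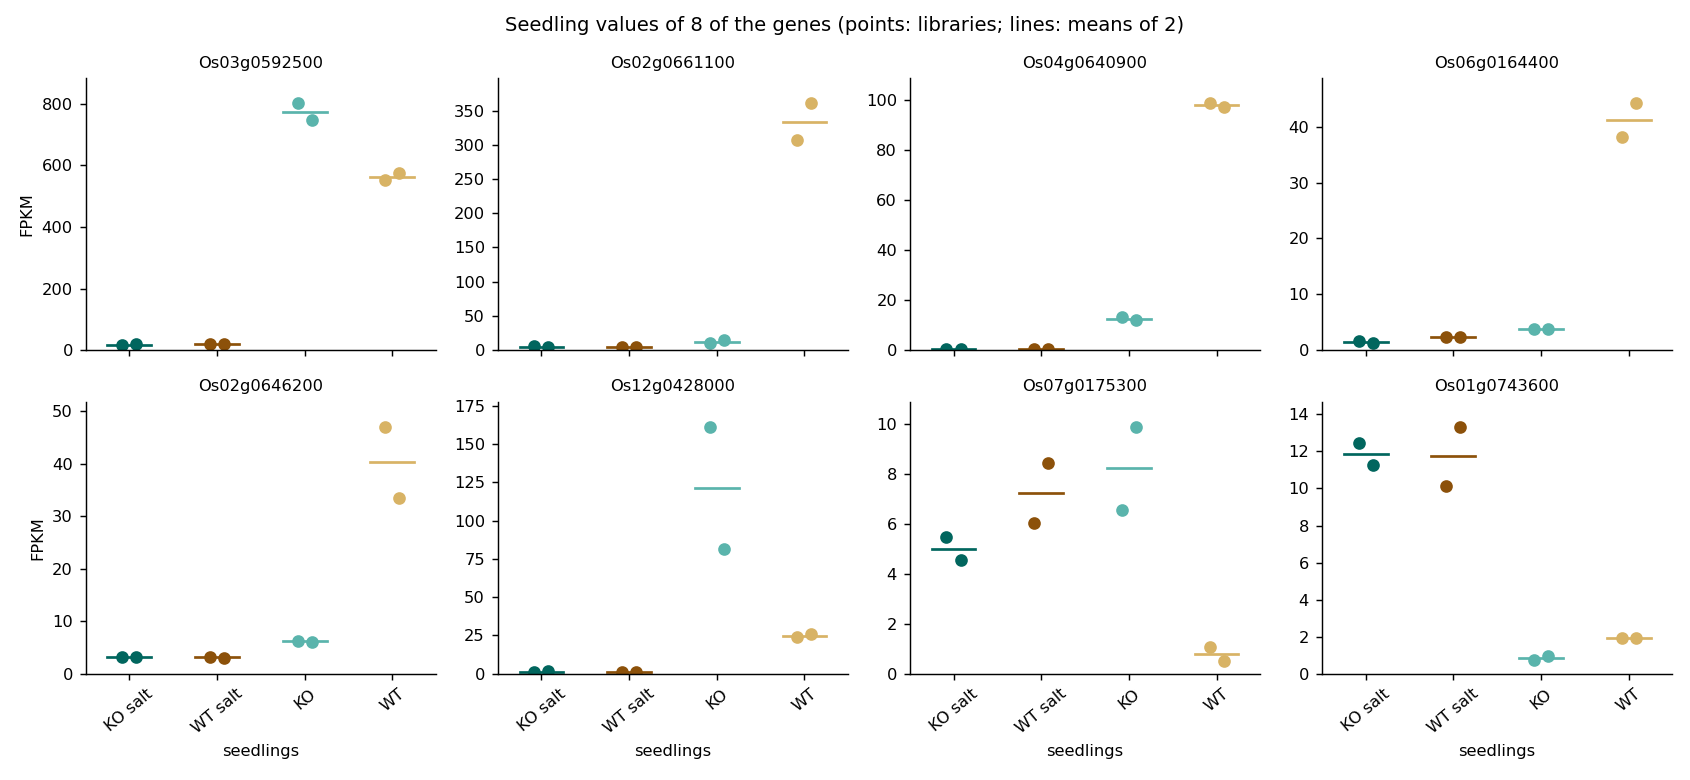
FPKM of 8 of the genes in h4.v KO seedlings with salt, WT with salt, h4.v KO without and WT without, with 1 point per library and a line at the mean of 2. Os03g0592500 and Os12g0428000 were low in all salt libraries, and Os01g0743600 was high with salt. Os02g0661100, Os04g0640900, Os06g0164400 and Os02g0646200 were highest in WT without salt.

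Loss of H4.V was compared with WT without salt. Of the 100 genes tested, 7 were higher and 4 lower (2.23% and 4.61% of all genes, 6.84% in either direction), and 10 of these 11 also passed an adjusted p of 0.05 by limma. The median log2 fold change was 0.33 in the 100 genes and 0.14 over all genes tested. Where genes with overrunning or shared transcripts were left out, 3 of 68 were higher and 4 lower, against 1.68% and 4.14% of the 11802 genes tested. Os06g0594300 and Os06g0594400, both called higher, overlap on chromosome 6 and share their transcript, so that they are 1 locus.

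The falls were large and came in 4 genes that, among seedlings, were highest in WT without salt. Os02g0661100 had 9.79 and 15.2 FPKM in h4.v KO, against 307 and 361 FPKM in WT, a log2 fold change of -4.66 ± 0.26 (SE, limma adjusted p = 0.00024). Os06g0164400 (chr6:3273390-3276888) had 3.76 and 3.80 FPKM in h4.v KO, against 38.1 and 44.2 FPKM in WT, a log2 fold change of -3.14 ± 0.12 (limma adjusted p = 9e-05). For Os04g0640900 the log2 fold change was -2.86 ± 0.08 (limma adjusted p = 4e-05), at the values given above. Os02g0646200 had 6.32 and 6.05 FPKM in h4.v KO, against 47.1 and 33.5 FPKM in WT (limma adjusted p = 0.0004). All 4 genes were also low in both genotypes with salt, at 0.47 to 6.39 FPKM.

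Among the rises, Os07g0175300 had 6.57 and 9.90 FPKM in h4.v KO, against 1.06 and 0.52 FPKM in WT, a log2 fold change of 2.36 ± 0.27 (SE, limma adjusted p = 0.0025). Os04g0630800 (chr4:32085612-32088272) had 4.62 and 4.15 FPKM in h4.v KO, against 0 and 0.04 FPKM in WT, a log2 fold change of 2.40 ± 0.16 (limma adjusted p = 0.00036). Both kept these values when every overlapping transcript was counted. Os12g0428000 had a log2 fold change of 2.16 ± 0.33 (limma adjusted p = 0.0069).

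Os09g0522500 (chr9:20403655-20403876) had the largest listed rise and cannot be read as one. It was listed at 24.0 and 20.4 FPKM in h4.v KO and at 0 in both WT libraries, with a transcript overrunning this short gene or shared in 7 of the 8 seedling libraries. With every overlapping transcript, it had 24.5 and 20.5 FPKM in h4.v KO, against 131 and 86.8 FPKM in WT. Its log2 fold change of 4.53 thereby turned to -2.2.

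With salt in both genotypes, few of the genes were called. In h4.v KO with salt against WT with salt, 0 of the 100 were higher and 3 lower (0.641% and 0.570% of all genes, 1.21% in either direction), and at the unadjusted p alone 2 were higher and 22 lower, against 6.21% and 10.6% of all genes tested. Os10g0569800 (chr10:22587847-22592131) had 0.11 and 0 FPKM in h4.v KO with salt, against 4.30 and 3.81 FPKM in WT with salt, and was the one that passed after adjustment (log2 fold change -2.26 ± 0.16 SE, limma adjusted p = 0.004). In 4 of the 8 seedling libraries, a transcript overran this gene or was shared with another. With every overlapping transcript, it had 0.84 and 0 FPKM in h4.v KO with salt, and its values in WT with salt did not move. Os08g0126700 had 0.04 and 1.04 FPKM in h4.v KO with salt, against 2.60 and 5.29 FPKM in WT with salt (limma adjusted p = 0.199). Os12g0547600 was listed at 0 in both h4.v KO salt libraries and at 2.26 and 10.6 FPKM in WT with salt (limma adjusted p = 0.111), and lost its call with every overlapping transcript.

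The effect of salt was tested for a difference between genotypes as an interaction. Of the 100 genes, 11 had a lower and 6 a higher effect of salt in h4.v KO than in WT (3.43% and 4.75% of all genes, 8.18% in either direction), and 13 of the 17 passed an adjusted p of 0.05 by limma. The median interaction was -0.55 in the 100 genes and -0.16 over all genes tested. Where genes with overrunning or shared transcripts were left out, 5 of 68 were lower and 6 higher, against 2.94% and 4.46% of the 11802 genes tested. The largest positive ones were Os02g0661100 (4.66 ± 0.37 SE, limma adjusted p = 0.0012), Os04g0640900 (2.91 ± 0.11, limma adjusted p = 0.00019) and Os06g0164400 (2.69 ± 0.17, limma adjusted p = 0.00065). In these, h4.v KO was already below WT without salt, and the genotypes differed by 0.44 or less on the log2 scale with salt. Os04g0640900 still fell with salt in h4.v KO (log2 fold change -3.15 ± 0.08 SE, limma adjusted p = 2.1e-05). The falls of Os02g0661100 and Os06g0164400 in h4.v KO were under the fold cut-off.

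**Figure D5:**
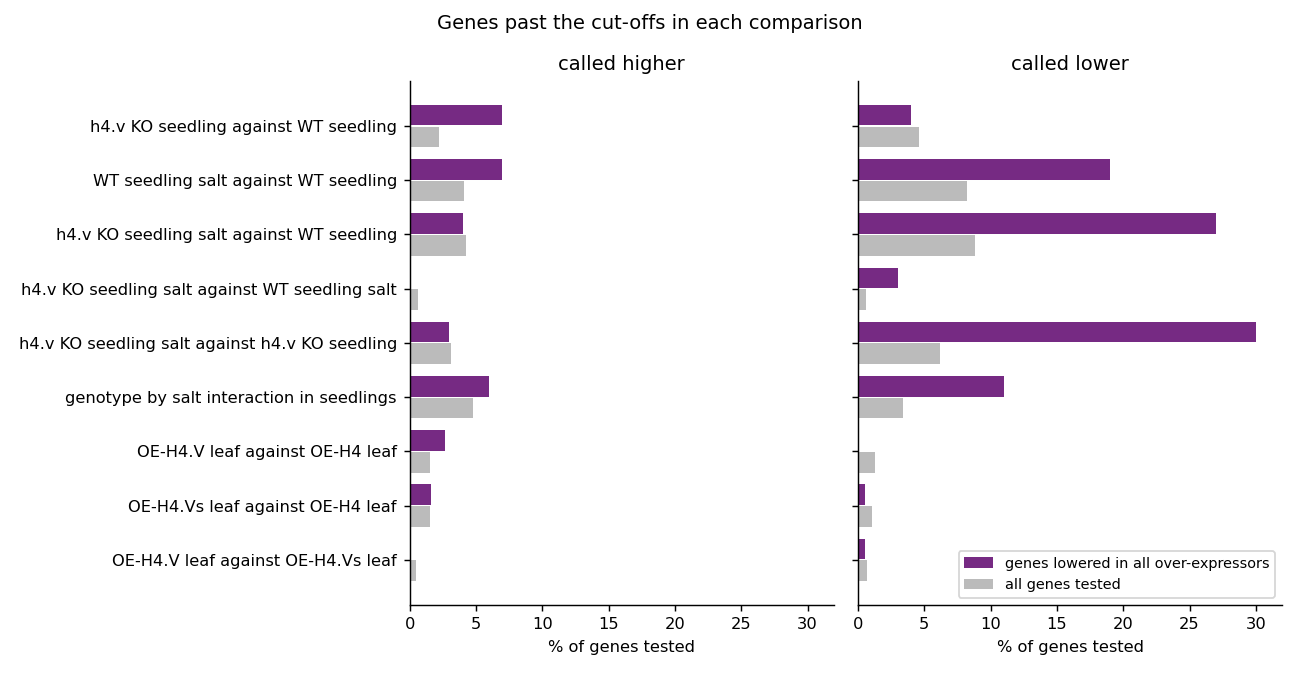
Share of genes called higher (left) and lower (right) in each comparison, in percent of the genes tested, for the genes lowered in all over-expressors (purple, 100 tested in seedlings and 185 in leaves) and for all genes tested (grey, 15450 and 12159). The widest gaps are in the falls with salt, at 30%, 27% and 19% of the 100 genes.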

How the data were processed

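RNA-seq tables of 16 rice libraries were used. Reads had been trimmed (Trimmomatic), aligned to IRGSP1.0 (HISAT2) and assembled by library with Cufflinks 2.2.1, per the submitters' processing notes. The deposited values are FPKM with Cufflinks' bounds, made by the authors for the transcripts of each library. Read counts and depth are not given in the sources used here, so no count test was run.

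A gene's value was the sum, over transcripts lying by at least 50% in its annotated span, of FPKM times the share of the span covered. Of 29771 identifiers, 3 with 2 spans were left out. Genes averaging 1 FPKM or more in a tissue entered a limma fit with 1 mean per group (limma 3.58.1, R 4.3.3). The cut-offs of the study were used, namely p under 0.05, here without adjustment, and a log2 fold change beyond 1.5 in size. Scripts were tested on simulated data. Per library, 11297 to 11775 genes in leaves and 14363 to 14804 in seedlings reached 1 FPKM. P-values rest on the spread between the 2 libraries of a group, pooled over all groups of the tissue. Limma moderated this spread towards its trend over all genes tested. The comparisons between over-expressors therefore also use the spread of the WT leaf libraries.

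The genes, lists and comparisons were chosen with earlier results of these data known. Named genes are the 10 highest in WT leaves, the 3 on each side of the threshold, the 3 largest calls per direction in each comparison and the first of the longest runs. Further genes are given as examples chosen after their values were seen. The planned gene lists, markers and promoter motifs were not used here, because nothing in the sources pairs the identifiers with names or sequences, and none of the 197 matched the 39387 entries of the RefSeq table. Alternatives were other pseudocounts, filters, scalings, transcript assignments and cut-offs, a replicate block and leaving out each library. Python 3.11.15, pandas 2.3.3, NumPy 2.4.6 and matplotlib 3.10.9 were used.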

Additional observations from a re-analysis of the deposited data

Results flagged for a closer look

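The effect of salt was called different between h4.v KO and WT seedlings in 17 of the 100 genes tested (limma interaction, unadjusted p under 0.05 and absolute log2 size over 1.5). The share was 8.18% of all 15450 genes tested. Of the 17, 13 passed an adjusted p of 0.05 by limma. Os06g0594300 and Os06g0594400 are counted separately in the 17, though they are 1 locus. The interactions named were 4.66 in Os02g0661100, 2.91 in Os04g0640900 and 2.69 in Os06g0164400, and -4.52 in Os09g0522500, -3.29 in Os10g0569800 and -2.80 in Os07g0175300. The interaction of Os09g0522500 turned to 2.22 when every overlapping transcript was counted, and that of Os10g0569800 became -1.25 and lost its call.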

How the results depend on the processing

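With every overlapping transcript, a setting chosen after seeing the data, 8 log2 fold changes turned round. They became -2.2 (h4.v KO against WT) and 2.22 (interaction) in Os09g0522500, -0.53 (WT with salt against without), -0.33 (h4.v KO with salt against WT without) and -1.01 (h4.v KO with salt against without) in Os03g0101500, -1.59 (WT with salt against without) in Os12g0547600, -0.3 (h4.v KO with salt against without) in Os07g0190800 and 0.79 (OE-H4.Vs against OE-H4) in Os12g0548300. In each of these genes, some libraries listed at 0 had a value above 0 under this setting. What caused the reversals was not tested.

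Counts of calls moved as follows. For h4.v KO against WT, 11 calls became 7 without genes having overrunning or shared transcripts and 20 at a log2 cut-off of 1, and leaving out 1 library gave 9 to 14. WT with salt against without had 26, and 17 at a mean of 5 FPKM or more. The 3 calls between genotypes with salt became 1 at that mean, 1 without overrunning transcripts, 1 by adjusted p, 1 in genes that keep the rule over every overlapping transcript and 5 at a log2 cut-off of 1, and 3 to 7 without 1 library (7 without h4.v KO salt replicate 1, 5 without h4.v KO salt replicate 2 or WT salt replicate 1). The 17 interactions became 11 without overrunning transcripts and 28 at a log2 cut-off of 1.

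Between lines, OE-H4.V against OE-H4 had 5 calls, against 18 at a pseudocount of 0.1, 2 at a mean of 5 FPKM, 8 by a plain sum, 1 by adjusted p and 16 at a log2 cut-off of 1, and 4 to 8 without 1 library (8 without either OE-H4.V library). OE-H4.Vs against OE-H4 had 4, against 20, 2, 8, 2 and 14 in the same order, 2 in genes that keep the rule, and 2 to 10 without 1 library (10 without OE-H4.Vs replicate 1, 2 without replicate 2). OE-H4.V against OE-H4.Vs had 1, against 5 at a pseudocount of 0.1, 3 by a plain sum, 0 by adjusted p (limma, with 12 at an unadjusted p alone) and 4 at a log2 cut-off of 1, and 1 to 5 without 1 library (2 and 3 without OE-H4.V replicate 1 and 2, 4 and 5 without OE-H4.Vs replicate 1 and 2). The calls numbered 5, 4 and 1 also among genes averaging 1 FPKM over the 6 over-expressor libraries, a filter chosen after seeing the data. The cause was not tested.

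The 197 genes became 77 at a WT minimum of 10 FPKM, 309 at 1.5 times, 131 without overrunning transcripts and 200 to 312 without 1 library (312 without WT leaf replicate 2, 284 without replicate 1). Replicate numbers did not pair the libraries (correlation of deviations from -0.03 to 0.09). The replicate block ended 1 call of 41, Os01g0855900 in h4.v KO with salt against WT without (by limma, unadjusted p of 0.0589).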
